A study of Mus musculus with 16 samples.

Results

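The genes of the extracellular Wnt system were followed in polyA RNA from 2 mouse stromal lines and the exosomes they release. They were chosen by symbol alone: numbered Wnt, Fzd, Sfrp, Dkk and Rspo genes together with Lrp5, Lrp6 and Wif1. This gave 44 of the 43629 genes in the read tables, namely 19 Wnt ligands, 4 R-spondins, 10 Frizzled receptors, 2 co-receptors and 9 secreted antagonists. AFT024 and BFC012 are lines established from C57BL/6 fetal liver at 14.5 days post coitum, with no transgene or agent named in the labels. The labels describe AFT024 as supportive of hematopoietic stem and progenitor cells and BFC012 as non-supportive. Exosomes are small membrane vesicles shed by cells. Each line is 1 line of its kind, so a difference between AFT024 and BFC012 cannot be told apart from a difference between any pair of lines. The 8 polyA samples form 4 groups (cells and exosomes of each line) of 2 samples, but only 1 merged value of each group was deposited. The spread between replicates is thus unknown for every value below, and p-values were not computed.

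Wnt proteins are secreted, lipid-modified ligands that bind Frizzled receptors together with the co-receptors Lrp5 or Lrp6. Binding of both stops the breakdown of beta-catenin, which then drives target genes with TCF/LEF factors, whereas ligands such as Wnt5a are best known for signalling without beta-catenin. R-spondins raise the amount of Frizzled at the membrane by way of Lgr receptors. Secreted Frizzled-related proteins (Sfrp) and Wif1 bind Wnt ligands, and Dickkopf proteins such as Dkk1 block the co-receptors. In fetal liver and marrow, stromal cells are known as a source of Wnt ligands and antagonists that act on blood stem and progenitor cells.

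The tables held 39385534 reads for AFT024 cells, 35874383 for BFC012 cells, 9038471 for AFT024 exosomes and 16344350 for BFC012 exosomes. A count of 0 allows up to 3 reads, which is 0.0762, 0.0836, 0.332 and 0.184 RPM (reads scaled to library size) in this order, so the exosome groups, AFT024 above all, had less power to detect a rare transcript. The 5 mesothelial markers summed to 38.6 (AFT024) and 218 FPKM (BFC012) in cells, and to 13.2 and 38.6 in exosomes. AFT024 cells had 0 reads for Wt1, Upk1b and Lrrn4, whereas Msln, which made up nearly all of their sum, went the other way with 3699 reads against 1467 in BFC012 cells. The 7 mesenchymal markers summed to between 524 and 2973 FPKM in the 4 groups, with Thy1 at 0 reads in all but AFT024 cells, where it had 1. Vim made up most of each sum, at 2591 (AFT024) and 1597 FPKM (BFC012) in cells and 554 and 497 in exosomes. Other markers of this list differed more between the cells: Col1a2 stood at 1717 (AFT024) against 12 reads (BFC012), and Col1a1 at 79061 against 18230. None of the 7 was higher in reads in BFC012 cells. Of the 6 hepatoblast and hepatocyte markers, 5 had FPKM, which summed in the cells to 0.202 and 12.3. The latter was nearly all from Foxa2 (4 and 976 reads), and Ttr was at 0 reads in every group. The 5 epithelial markers summed to 0.738 and 6.51 FPKM, led in BFC012 cells by Cdh1 (3 and 756 reads). Of the 5 hematopoietic markers, 4 had FPKM, which summed to 53.8 and 54.2, mostly from Cd34 (4323 and 4336 reads). Itgam was listed at 10.6 and 8.50 FPKM with only 3 and 5 reads, while Ptprc had 1 or 2 reads in any group. The endothelial and the erythroid markers each summed to less than 1 FPKM in every group, with FPKM for 3 of the 5 erythroid markers. The part that these transcripts play in the differences between the lines was not tested. In bulk RNA of the cells, fewer cells of a type and less RNA per cell cannot be told apart.

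Values are given as whole reads and as FPKM (fragments scaled to transcript length and library size, as deposited), always in the order AFT024 cells, BFC012 cells, AFT024 exosomes, BFC012 exosomes. Levels of different genes are compared only in FPKM or in RPKM, since long transcripts yield more reads. RPKM are whole reads scaled to library size and to the length of a gene's merged exons over all annotated transcripts. That length can exceed a single transcript, which lowers RPKM. A read ratio compares whole reads once each library is scaled by median-of-ratios factors, and its bracketed 95% interval (exact, Clopper-Pearson) covers counting error only. Ratios were read for genes with at least 20 reads in 1 of the 2 groups compared, and a gene is called higher or lower where its ratio passed 2-fold. A ratio against a group at 0 reads is a bound set at 3 reads. Such a bound leaves out the counting error of the other group, so the 95% interval can reach closer to no difference. For Sfrp1 between the cells the bound is 84.1-fold and the interval starts at 67.9.

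Of the 44 genes, 26 reached 20 reads in at least 1 group. By role these were 9 ligands, 2 R-spondins, 9 Frizzled receptors, both co-receptors and 4 antagonists. The most abundant was Sfrp2, which stood at 46.0 FPKM in cells of AFT024 and 43.0 in those of BFC012 (2.34 and 5.96 in the exosomes). Next in FPKM came Lrp5, Fzd2 and Lrp6 in AFT024 cells and Lrp6, Fzd6 and Lrp5 in BFC012 cells. No ligand passed 7.27 FPKM, the level of Wnt10b in AFT024 cells. In RPKM the Frizzled genes summed to 47.7, 42.9, 66.1 and 105, the co-receptors to 20.02, 28.6, 10.1 and 19.6, and the antagonists to 64.8, 59.0, 8.71 and 12.0. The ligands summed to 10.7, 8.54, 7.76 and 7.03 and the R-spondins to 1.17, 0.671, 0.1004 and 0.408. Antagonist transcripts thus led in the cells and Frizzled transcripts in the exosomes of both lines, and the antagonist lead was that of Sfrp2 alone, which gave 60.9 and 58.6 RPKM in the cells. In deposited FPKM the Frizzled sums were 34.6, 41.1, 32.5 and 71.1, so AFT024 exosomes lay just below AFT024 cells there, and Fzd6 is listed at 0 FPKM in AFT024 cells although it had 1853 reads. The antagonists summed to 49.4, 43.7, 2.95 and 6.35 FPKM, and the co-receptors to 28.2, 38.3, 6.81 and 18.5 FPKM.

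**Figure D1:**
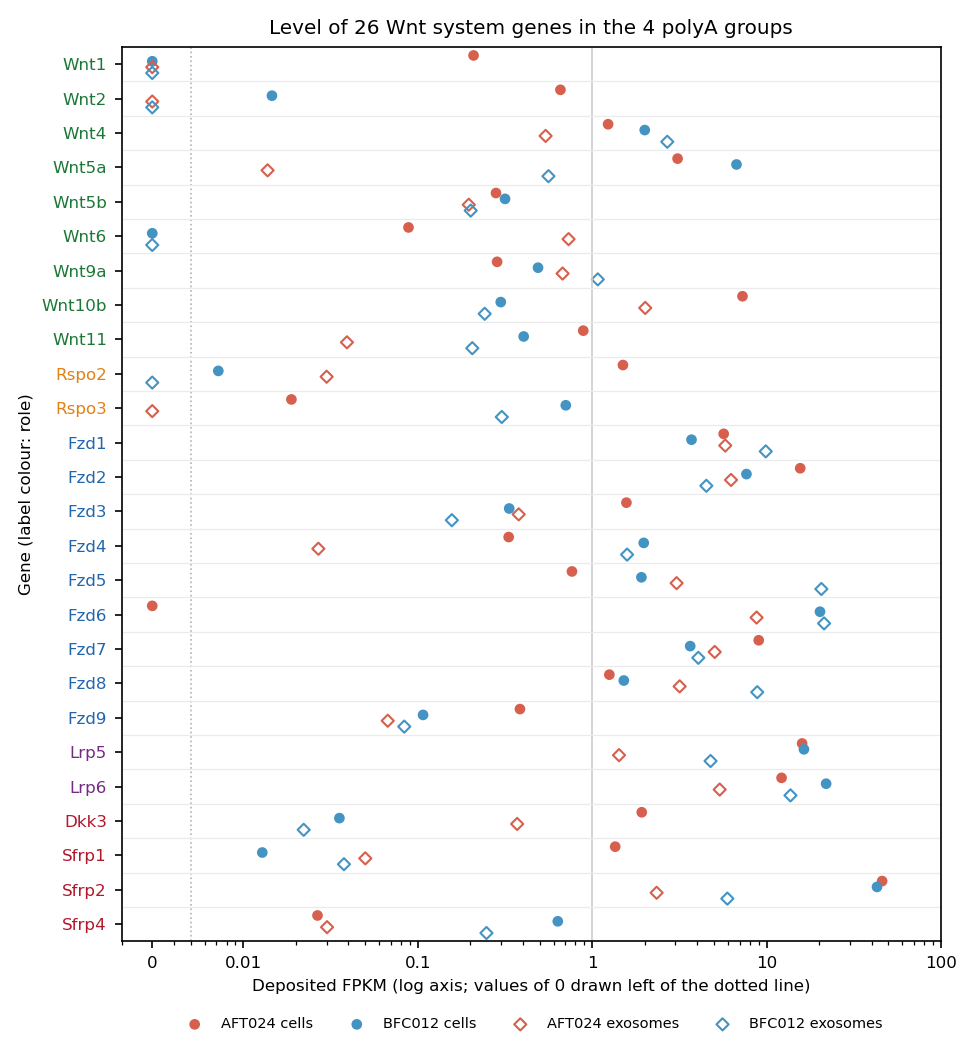
Deposited FPKM (log axis) of the 26 Wnt system genes with at least 20 reads in a group, 1 point per group: filled circles are cells, open diamonds exosomes, red AFT024 and blue BFC012; label colour gives the role and the grey line marks 1 FPKM. Sfrp2 lies far lower in exosomes than in cells, Fzd5 lies higher in exosomes, and the point of Fzd6 at 0 in AFT024 cells is a listed 0 despite 1853 reads.

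**Figure D2:**
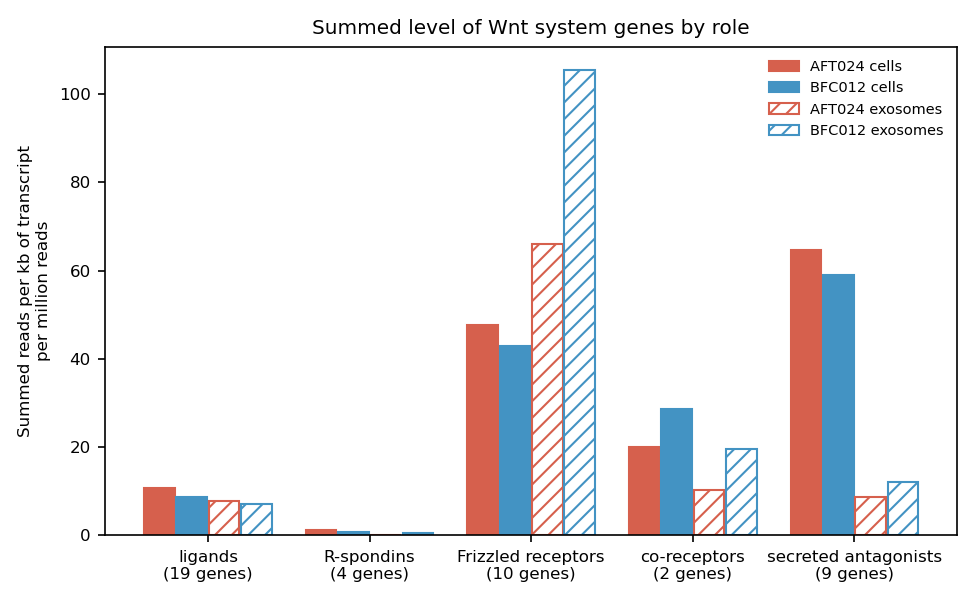
Summed RPKM for each role (bars from 0), in cells (filled) and exosomes (hatched) of AFT024 (red) and BFC012 (blue). RPKM are whole reads scaled to library size and merged exon length, which the axis calls transcript. No error bars are drawn because each group is 1 merged value. Frizzled genes are the tallest bars in exosomes (66.1 and 105) and secreted antagonists the tallest in cells (64.8 and 59.0).

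The first comparison asked how the supportive and the non-supportive line differ as cells. AFT024 cells had far more Wnt10b, Wnt2 and Wnt1 transcripts, more Rspo2, and more of the antagonists Sfrp1 and Dkk3. BFC012 cells had more Wnt5a, Rspo3 and Sfrp4. The receptors divided, with Fzd2, Fzd3, Fzd7 and Fzd9 higher in AFT024 and Fzd4, Fzd5 and Fzd6 higher in BFC012. In all, 10 of the 25 genes with enough reads were called higher in AFT024 cells and 6 lower, 64.0% in either direction, against 21.4% of all genes (12% higher and 9.39% lower). Their median ratio was 1.06, against 0.998 over all genes. The differences ran in both directions among ligands, R-spondins, receptors and antagonists alike.

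Wnt10b, a ligand of the beta-catenin branch known for holding stromal precursors back from the fat cell fate, had 734, 28, 91 and 14 reads and 7.27, 0.299, 2.01 and 0.242 FPKM. It was the most abundant ligand of AFT024 cells, and its read ratio between the cells was 24.4 (16.7 to 37.0). Wnt1, the founding member of the family, had 22 reads (0.209 FPKM) in AFT024 cells and 0 in the other groups. Its bound against BFC012 cells was 6.83-fold higher (interval from 5.10). The pair are neighbours on chromosome 15 (mm10; GENCODE mouse annotation): Wnt10b at chr15:98770712-98778150 on the minus strand and Wnt1 at chr15:98789857-98793837 on the plus strand, so that they point away from each other across 11.7 kb. Their upstream sequences are shown because these neighbours were both called higher in AFT024 cells; each is the 250 bases before the gene's start, 5′ to 3′ on the gene's strand, from the RefSeq promoter table (GRCm38.p6), with CG dinucleotides in capitals.
Wnt10b, chr15:98778151-98778400, minus strand: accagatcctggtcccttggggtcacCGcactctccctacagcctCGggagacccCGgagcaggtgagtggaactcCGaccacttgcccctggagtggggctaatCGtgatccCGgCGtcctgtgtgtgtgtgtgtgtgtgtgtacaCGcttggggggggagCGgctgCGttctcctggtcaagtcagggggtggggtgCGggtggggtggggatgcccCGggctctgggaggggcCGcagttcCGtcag
Wnt1, chr15:98789607-98789856, plus strand: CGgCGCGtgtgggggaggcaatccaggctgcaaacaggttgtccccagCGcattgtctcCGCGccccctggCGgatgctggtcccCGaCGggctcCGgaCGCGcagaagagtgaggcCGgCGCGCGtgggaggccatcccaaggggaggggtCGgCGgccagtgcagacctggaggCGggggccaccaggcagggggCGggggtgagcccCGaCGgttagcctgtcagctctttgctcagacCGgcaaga
The Wnt10b stretch holds 14 CG dinucleotides and the Wnt1 stretch 23, against a median of 6 over the 32851 promoters of the table, and 66.8% and 71.6% of their bases are G or C, against a median of 52.4%. A search for TCF/LEF words on both strands used 4 words, namely CTTTGAA and those with AT, TA or TT in place of its last AA. Neither stretch holds one, and 14.8% of all promoters do. Neither holds the word TATAAA, which 12.4% of all promoters hold and which the word ending in TA can overlap. Of the 28 Wnt system genes with an entry in the table, 4 hold a TCF/LEF word (Dkk1, Fzd7, Wnt11 and Wnt5b), which is 14.3%. This share is counted by gene, with any of its promoters sufficing, whereas the 14.8% is counted by promoter.

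Wnt2, another ligand of the beta-catenin branch, had 52, 1, 0 and 0 reads and 0.657, 0.0146, 0 and 0 FPKM. Its ratio between the cells was 48.4, with an interval of 8.31 to 1948 that the single BFC012 read leaves wide. Wnt5a, the ligand best known for signalling through Ror receptors, had 618, 1362, 2 and 74 reads and 3.09, 6.72, 0.0138 and 0.561 FPKM. It was the most abundant ligand of BFC012 cells, where it was 2.37-fold higher (2.15 to 2.61) than in AFT024 cells. The leading ligand thus differed between the lines as cells, while Wnt5a came next after Wnt10b in AFT024 cells. Wnt4, a ligand known from kidney and gonad development, had 194, 313, 23 and 248 reads and 1.23, 2.00, 0.541 and 2.69 FPKM, a ratio of 0.577 (0.480 to 0.692) between the cells. Wnt9a had 44, 68, 45 and 96 reads and 0.285, 0.489, 0.676 and 1.08 FPKM, a ratio of 0.602 (0.403 to 0.893). Wnt11, a ligand of the branch without beta-catenin, had 69, 35, 2 and 7 reads and 0.889, 0.405, 0.0392 and 0.205 FPKM, a ratio of 1.84 (1.20 to 2.84). Wnt5b had 26, 28, 8 and 11 reads and 0.281, 0.316, 0.196 and 0.201 FPKM, a ratio of 0.864 (0.487 to 1.53). These 4 ligands stayed within 2-fold between the cells. Wnt6 had 8 and 0 reads in the cells, too few for a ratio.

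The R-spondins differed in which gene each line transcribed. Rspo2 had 227, 1, 2 and 0 reads and 1.50, 0.00718, 0.0300 and 0 FPKM, a ratio of 211 (37.5 to 8382) between the cells. Rspo3 had 2, 69, 0 and 19 reads and 0.0188, 0.706, 0 and 0.303 FPKM, so it was 37.1-fold higher (9.88 to 312) in BFC012 cells. Rspo1 had 1 to 3 reads per group and Rspo4 none. The R-spondin receptor genes are given with the other pathway genes.

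Among the antagonists the lines shared Sfrp2 and differed in the other 3 with enough reads. Sfrp2 had 5165, 4529, 147 and 415 reads, and its ratio between the cells was 1.06 (1.02 to 1.10). Sfrp1 had 271, 0, 4 and 0 reads and 1.35, 0.0128, 0.0500 and 0.0377 FPKM, a bound of 84.1-fold higher in AFT024 cells (interval from 67.9). Its small FPKM in groups with 0 reads shows that FPKM and reads were not computed from the same assignment of reads. Dkk3, a member of the Dickkopf family that differs from Dkk1 in not being known as a co-receptor blocker, had 292, 5, 25 and 2 reads and 1.92, 0.0355, 0.371 and 0.0222 FPKM, a ratio of 54.4 (23.0 to 169). Sfrp4 had 2, 46, 1 and 11 reads and 0.0266, 0.635, 0.0302 and 0.248 FPKM, 24.7-fold higher (6.46 to 210) in BFC012 cells. Exons of Sfrp2, and likewise of Wnt5a, Wnt11, Fzd5 and Fzd6, overlap a gene on the other strand, which had at most 39 reads in any group. Exons of Rspo3 overlap the antisense gene Gm48159, whose reads were not analysed here. If counting ignored strand, which the sources used here do not state, such reads cannot be told apart.

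Of the 9 Frizzled receptors with enough reads, 4 were called higher in AFT024 cells and 3 lower, against 12% and 9.39% of all genes. Fzd2 had 2547, 1179, 453 and 444 reads and 15.6, 7.67, 6.25 and 4.51 FPKM, a ratio of 2.01 (1.88 to 2.16) that sits at the threshold and fell to the other side of it when reads were scaled to library totals. Fzd7 had 1899, 712, 470 and 502 reads and 9.01, 3.65, 5.04 and 4.06 FPKM, a ratio of 2.48 (2.28 to 2.71). Fzd3, known for guiding axons and for planar cell polarity, had 303, 59, 31 and 5 reads and 1.57, 0.334, 0.379 and 0.157 FPKM, a ratio of 4.78 (3.61 to 6.43). Fzd9 had 39, 10, 3 and 4 reads and 0.385, 0.107, 0.0672 and 0.0836 FPKM, a ratio of 3.63 (1.78 to 8.15). The 3 receptors lower in AFT024 cells were each present in both lines. Fzd4, the receptor that also binds the non-Wnt ligand norrin in blood vessels, had 56, 311, 2 and 158 reads and 0.332, 1.97, 0.0269 and 1.59 FPKM, 5.97-fold higher (4.48 to 8.08) in BFC012 cells. Fzd5 had 279, 568, 437 and 3949 reads and 0.765, 1.92, 3.05 and 20.6 FPKM, 2.19-fold higher (1.89 to 2.53) in BFC012 cells. Fzd6, known for hair and planar patterning, had 1853, 3514, 722 and 2369 reads and 0, 20.2, 8.76 and 21.4 FPKM, 2.04-fold higher (1.93 to 2.16) in BFC012 cells by reads. Fzd1 had 1086, 655, 488 and 1124 reads and 5.67, 3.71, 5.79 and 9.89 FPKM, a ratio of 1.54 (1.40 to 1.70). Fzd8 had 196, 218, 217 and 808 reads and 1.25, 1.52, 3.17 and 8.84 FPKM, a ratio of 0.837 (0.686 to 1.02). Both stayed within 2-fold between the cells.

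The co-receptors, which Wnt ligands need to signal through beta-catenin, stayed within 2-fold between the cells. Lrp5 had 3816, 3606, 143 and 555 reads and 16.0, 16.4, 1.43 and 4.77 FPKM, a ratio of 0.985 (0.941 to 1.03). Lrp6 had 5421, 8987, 1051 and 3593 reads and 12.2, 21.9, 5.38 and 13.7 FPKM, a ratio of 0.561 (0.543 to 0.581). In FPKM, Lrp5 lay above Lrp6 in AFT024 cells and below it in the other groups.

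**Figure D3:**
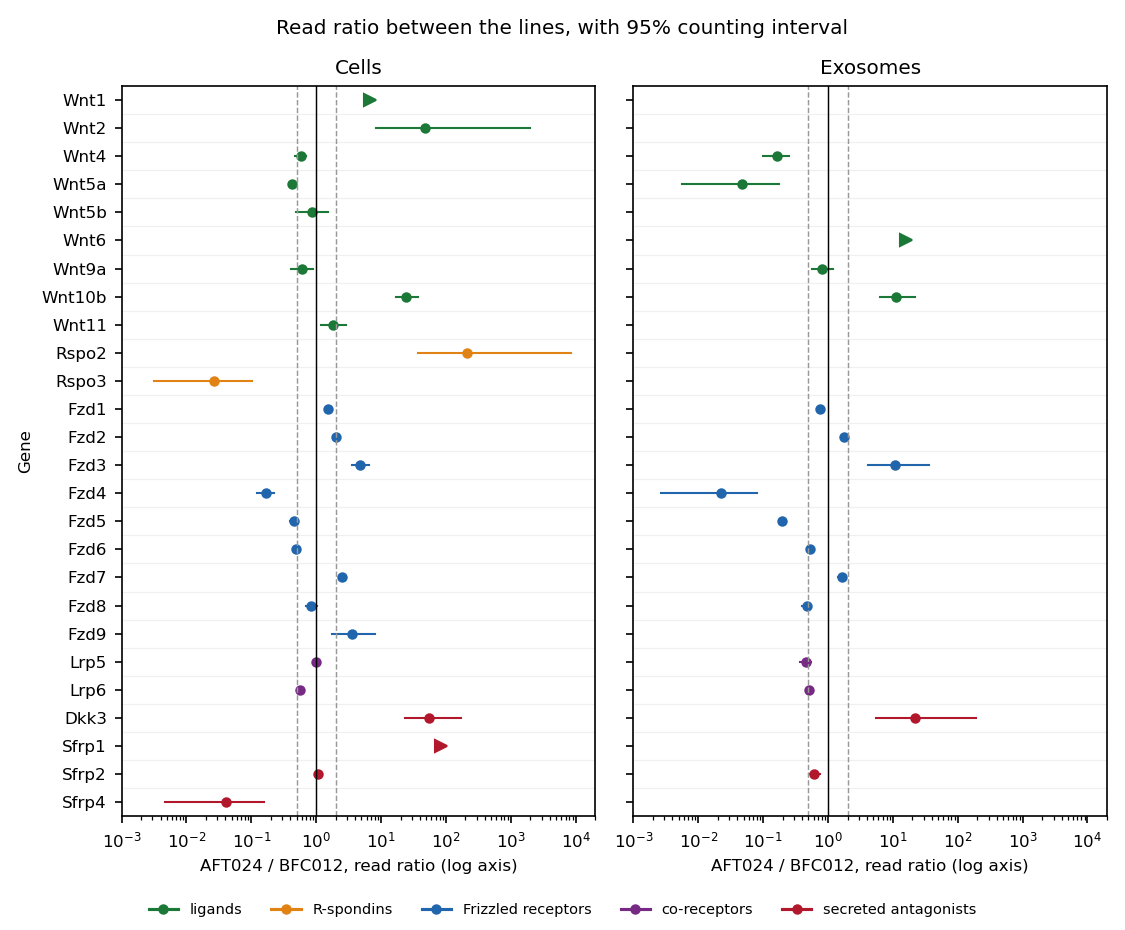
Read ratio of AFT024 to BFC012 (log axis) in cells (left) and exosomes (right) for each gene with at least 20 reads in 1 of the 2 groups; points are ratios, bars 95% counting intervals, triangles bounds against a group at 0 reads, dashed lines 2-fold and colours the roles. Rspo2 (211) lies farthest right and Rspo3 (0.0270) farthest left in cells, and Fzd4 (0.0221) lies farthest left in exosomes.

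The second comparison set the exosomes of the lines side by side. It shares no group with the comparison of the cells. Exosomes of AFT024 had more Wnt10b, Wnt6, Dkk3 and Fzd3, and those of BFC012 more Wnt5a, Wnt4, Fzd4, Fzd5, Fzd8 and Lrp5. Of 17 genes with enough reads, 4 were called higher in AFT024 and 6 lower, 58.8% in either direction against 28.9% of all genes (13.5% higher and 15.4% lower). Their median ratio was 0.619, against 0.932 over all genes. The split was 2 higher and 8 lower in FPKM as deposited (8.32% and 17.4% of all genes), where the median gene itself stood at -0.32 on the log2 scale of FPKM plus 1, and 2 and 2 relative to that median gene (12.8% and 9.28%). Of the 11 genes with at least 100 reads, 0 were called higher and 5 lower (9.52% and 14.3% of all such genes).

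Wnt10b was 11.4-fold higher (6.43 to 21.6) in AFT024 exosomes, from 91 against 14 reads. Wnt6, a ligand known from epithelia, had 27 reads and 0.732 FPKM in AFT024 exosomes and 0 in those of BFC012, a bound of 15.7-fold higher (interval from 11.9). Dkk3 had a ratio of 21.8 (5.45 to 190) and Fzd3 one of 10.8 (4.18 to 35.7), both resting on 5 or fewer BFC012 reads. The genes called higher in AFT024 exosomes thus had at most 91 reads there. Wnt5a was 21.2-fold higher (5.66 to 178) in BFC012 exosomes, from 74 against 2 reads. Wnt4 was 6.17-fold higher there (4.02 to 9.92), and Fzd4 45.2-fold (12.3 to 377). Fzd5 was 5.17-fold higher (4.68 to 5.72) in BFC012 exosomes, from 3949 against 437 reads. Fzd8 was 2.13-fold higher (1.83 to 2.49) and Lrp5 2.22-fold (1.84 to 2.69) in BFC012 exosomes, with intervals that reach below 2-fold. Fzd1, Fzd2, Fzd6, Fzd7, Lrp6, Sfrp2 and Wnt9a stayed within 2-fold, with ratios from 0.511 for Lrp6 to 1.78 for Fzd2. Neither Wnt1 nor Wnt2, both higher in AFT024 cells, had a read in the exosomes of either line. Rspo2 had 2 reads in AFT024 exosomes and Rspo3 19 in BFC012 exosomes, too few for a ratio.

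The remaining comparisons, exosomes against cells in each line, asked which transcripts are more or less frequent in exosomes than in the cells that release them. In both lines Fzd5, Fzd8, Fzd1, Fzd6 and Wnt9a were higher in exosomes, and Wnt5a, Sfrp2 and Lrp5 were lower. In AFT024, 6 of 24 genes were called higher in exosomes and 10 lower, 66.7% in either direction, against 48.6% of all genes (19.9% higher and 28.7% lower). In BFC012, 7 of 19 were called higher and 4 lower, 57.9% against 50.1% of all genes (22.4% higher and 27.7% lower). The median ratios were 0.707 in AFT024 and 1.24 in BFC012, against 0.820 and 0.897 over all genes.

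These splits depended on how the libraries were scaled. With scaling to total reads they were 4 higher and 11 lower in AFT024 (13.9% and 40.6% of all genes) and 4 and 5 in BFC012 (14.4% and 40.7%). With upper-quartile scaling they were 7 and 8 in AFT024 (25.8% and 20.8%) and 7 and 3 in BFC012 (25.7% and 23.2%). In FPKM as deposited they were 3 and 9 (8.26% and 57.4%) and 3 and 3 (8.8% and 47.7%). Relative to the median gene they were 5 and 2 (23% and 21.2%) and 6 and 2 (22.8% and 21.7%). In AFT024 both FPKM splits count Fzd6 as higher, at 3.29 on the log2 scale of deposited FPKM plus 1. That call rests on its listed 0 FPKM in AFT024 cells, where it had 1853 reads. Scaling to total reads moved every AFT024 ratio by -0.42 and every BFC012 ratio by -0.50 on the log2 scale. It brought the higher calls of Fzd1 and Fzd6 in AFT024 and of Fzd6, Fzd7 and Wnt4 in BFC012 within 2-fold, and added lower calls of Fzd3 in AFT024 and Wnt11 in BFC012. Upper-quartile scaling brought the lower calls of Dkk3 and Fzd9 in AFT024 and of Lrp5 in BFC012 within 2-fold, and added a higher call of Wnt5b in AFT024. The median gene stood at -1.23 in AFT024 and -0.92 in BFC012 on the log2 scale of deposited FPKM plus 1, and changes in reads are relative to a median set by the scaling.

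Among genes read in both lines, a pair of Frizzled genes held the highest ratios. Fzd5 was 9.14-fold higher (7.85 to 10.7) in AFT024 exosomes than in AFT024 cells and 21.6-fold higher (19.8 to 23.6) in BFC012 exosomes than in BFC012 cells. Fzd8 followed at 6.46 (5.30 to 7.88) and 11.5 (9.91 to 13.4), and Fzd1 at 2.62 (2.35 to 2.92) and 5.33 (4.84 to 5.88). Fzd6 stood at 2.27 (2.08 to 2.48) and 2.09 (1.99 to 2.21). Fzd7 was within 2-fold in AFT024, at 1.44 (1.30 to 1.60), and called higher in BFC012, at 2.19 (1.95 to 2.46). Fzd2 stayed within 2-fold in both, at 1.04 (0.937 to 1.15) and 1.17 (1.05 to 1.31). Frizzled genes thus differed widely among themselves in each line. Of 9 Frizzled genes in AFT024, 4 were called higher and 2 lower, against 19.9% and 28.7% of all genes. Of 8 in BFC012, 5 were called higher and 1 lower, against 22.4% and 27.7%.

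A few Frizzled genes lay on the other side. Fzd4 was called lower in AFT024 exosomes, at 0.208 (0.0246 to 0.789) from 2 reads, and stood at 1.58 (1.30 to 1.92) in BFC012. Fzd3 stood at 0.597 (0.398 to 0.865) in AFT024 and was called lower in BFC012, at 0.263 (0.0825 to 0.650) from 5 reads. Fzd9 was called lower in AFT024 at 0.449, but its interval of 0.0887 to 1.41 spans no difference. In FPKM relative to the median gene with 1 added, Fzd4 and Fzd9 in AFT024 and Fzd3 in BFC012 turned to the higher side, each with under 2 FPKM in both groups compared.

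Fzd1, Fzd2, Fzd7, Fzd8 and Fzd9 are annotated with a single exon and Fzd4 and Fzd5 with 2, whereas Fzd3 and Fzd6 have 7. Over all protein-coding genes, 29.4% of those with 1 exon were called higher in AFT024 exosomes and 32.6% in BFC012 exosomes, against 26.3% and 27.5% of those with 2 and 18.2% and 21.9% of those with 3 or more. The median ratio was 1.19 and 1.16 for 1-exon genes, 0.995 and 1.01 for 2-exon genes and 0.790 and 0.906 for the rest. The 1-exon Frizzled genes ranged from 0.449 to 6.46 in AFT024 and from 1.17 to 11.5 in BFC012. The part of exon number in these ratios was not tested.

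Of the ligands, Wnt9a was higher in exosomes in both lines, at 5.97 (3.85 to 9.25) in AFT024 and 4.39 (3.18 to 6.08) in BFC012. Wnt6 was 19.7-fold higher (8.70 to 50.1) in AFT024 exosomes, from 27 against 8 reads. Wnt4 was called higher in BFC012, at 2.46 (2.08 to 2.92), and stood at 0.692 (0.428 to 1.07) in AFT024. Wnt5a was lower in exosomes of both lines, 53.0-fold (14.6 to 438) in AFT024 and 5.92-fold (4.69 to 7.59) in BFC012. The most abundant ligand of BFC012 cells was therefore among the least frequent in exosomes relative to cells. Wnt10b stood at 0.723 (0.575 to 0.900) and 1.55 (0.756 to 3.05), so the leading ligand of AFT024 cells remained within 2-fold in its exosomes. Wnt11 was called lower in AFT024, at 0.169 (0.0201 to 0.634) from 2 exosome reads, and Wnt5b stayed within 2-fold in both lines. Wnt2 had 0 reads in AFT024 exosomes, a bound of 2.97-fold lower than in the cells (interval from 2.33). At 0 exosome reads the bound for Wnt1 in AFT024 was 0.796, but the interval reaches 1.07, so no difference was detectable at this depth.

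The secreted antagonists were lower in exosomes wherever they were called. Sfrp2 was 6.02-fold lower (5.11 to 7.14) in AFT024 exosomes and 3.51-fold lower (3.18 to 3.89) in those of BFC012, where its FPKM was 2.34 and 5.96. Sfrp1 was 11.6-fold lower (4.48 to 42.9) in AFT024 exosomes, and Dkk3 lay at the threshold with 2.00-fold (1.33 to 3.14). Sfrp4 stood at 0.743 (0.347 to 1.46) in BFC012. Rspo2 was 19.5-fold lower (5.32 to 162) in AFT024 exosomes, and Rspo3 stood at 0.856 (0.486 to 1.44) in BFC012. Sfrp1, Dkk3 and Wnt11 in AFT024 turned to the higher side in FPKM relative to the median gene with 1 added, at 0.065, 0.14 and 0.37 on the log2 scale. The co-receptors parted: Lrp5 was 4.57-fold lower (3.87 to 5.44) in AFT024 exosomes and 2.09-fold lower (1.91 to 2.29) in BFC012 exosomes. The BFC012 value of Lrp5 fell within 2-fold with upper-quartile scaling (-0.89 on the log2 scale) and in FPKM relative to the median gene (-0.67). Lrp6 stayed within 2-fold in both, at 1.13 (1.06 to 1.21) and 1.24 (1.19 to 1.29).

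The exosome-against-cell ratios of the lines share no group, and 17 genes had enough reads in both. Over these, Spearman's rho was 0.83 and Pearson's r of the log2 ratios 0.86, against 0.81 and 0.83 over 12123 genes; the points share library preparation and scaling. Called in the same direction in both lines were 8 of 17, and none was called in opposite directions. The share of all genes called in these ways was not counted. The intervals of the lines lay apart for 9 of 17 (52.9%, against 50.4% of all genes), and in each of these 9 the ratio was higher in BFC012. Over all genes 31.4% lay apart and were higher in BFC012, which is 62.2% of those that lay apart. They were Fzd1, Fzd4, Fzd5, Fzd7, Fzd8, Lrp5, Sfrp2, Wnt4 and Wnt5a. The intervals cover counting error only, and the difference between the lines was not tested over replicates.

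**Figure D4:**
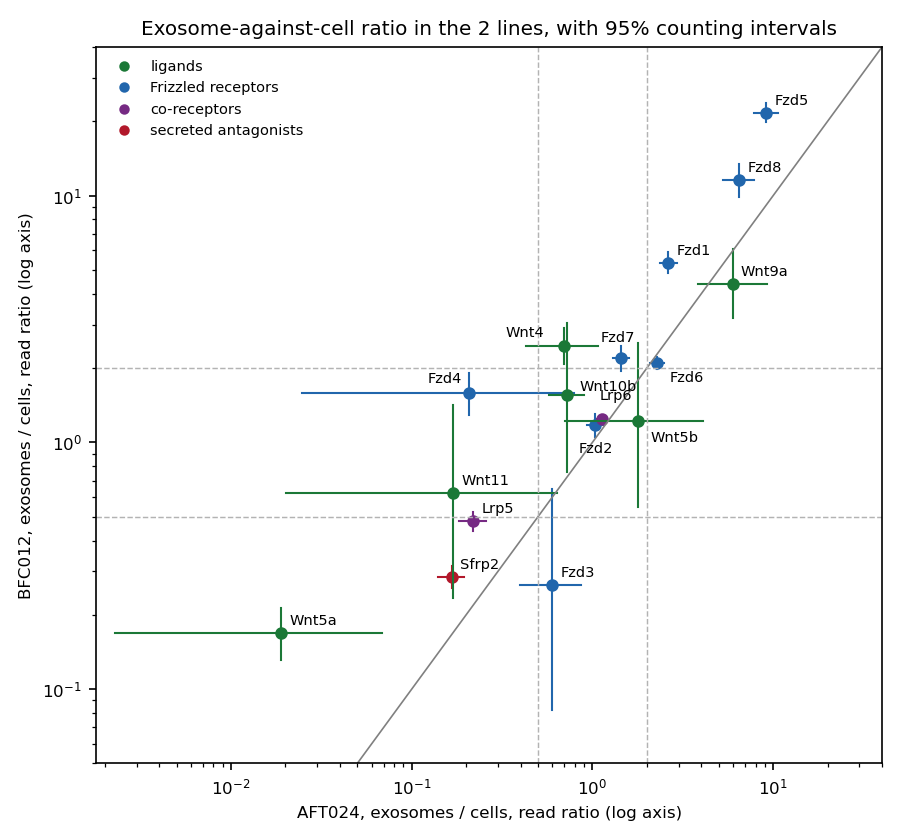
Exosome-against-cell read ratio in AFT024 (x axis) and BFC012 (y axis), both log axes, for the 17 genes with enough reads in both lines; bars are 95% counting intervals, dashed lines 2-fold, the solid line equality and colours the roles. Fzd5, Fzd8, Fzd1 and Wnt9a lie at the upper right and Wnt5a, Sfrp2 and Lrp5 at the lower left, and most points lie above the line of equality.

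A list of 57 other Wnt pathway genes shows what surrounded these ligands and receptors. In cells, 47 had enough reads, 12 were called higher in AFT024 and 4 lower, 34.0% in either direction against the 21.4% of all genes given above. The cytoplasmic core (9 genes, among them Ctnnb1, which encodes beta-catenin) stayed within 2-fold without exception. Most genes did too, since 21.4% of all genes were called. The receptors Ror2 and Ror1, which bind Wnt5a, divided between the lines. Ror2 had 1545 and 0 reads, a bound of 479-fold higher in AFT024 cells (interval from 389). Ror1 had 19 and 1742, 98.5-fold higher (62.9 to 164) in BFC012 cells. In exosomes Ror2 had 197 and 0 reads, a bound of 115-fold higher in AFT024 (interval from 92.5). Ror1 had 1 and 297 there, 170-fold higher (30.3 to 6735) in BFC012. Lgr6, a receptor of R-spondins, had 979 and 26 reads in the cells, a ratio of 35.0 (23.8 to 53.9), and 65 and 2 in exosomes, a ratio of 56.8 (15.1 to 479). Of the 4 R-spondin receptor and E3 ligase genes with enough reads, 3 were called higher in AFT024 cells (Lgr4, Lgr6 and Rnf43) and the same 3 in AFT024 exosomes, against 12% and 13.5% of all genes. Nkd1, a feedback inhibitor and frequent target of the pathway, had 85 and 1 reads in the cells, a ratio of 79.1 (13.8 to 3161). Of the 11 common targets, 9 had enough reads in the cells, 4 were called higher in AFT024 (Lef1, Nkd1, Nkd2 and Tnfrsf19) and 1 lower (Wisp2), against 12% and 9.39% of all genes. Wisp2 was 7.97-fold higher (5.74 to 11.3) in BFC012 cells and 23.3-fold higher (7.78 to 114) in BFC012 exosomes. Axin2, a target widely used to read the pathway, had 4 and 9 reads in the cells, and is named here after its values were seen. Sost, which encodes the co-receptor antagonist sclerostin, had 0 and 63 reads, a bound of 22.6-fold lower in AFT024 cells (interval from 17.8).

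Between the exosomes of the lines, 39 of the 57 had enough reads, with 9 called higher in AFT024 and 5 lower, 35.9% against 28.9% of all genes. Prickle1, a planar polarity gene, was 17.1-fold higher (12.0 to 24.9) in AFT024 exosomes, and Tcf7l1, a TCF factor known as a repressor, 3.60-fold higher (2.83 to 4.65) in BFC012 exosomes. For exosomes against cells, 10 of 44 were called higher and 17 lower in AFT024 (61.4%), and 11 of 40 higher and 14 lower in BFC012 (62.5%), against 48.6% and 50.1% of all genes. With scaling to total reads the splits were 8 and 22 in AFT024 (13.9% and 40.6% of all genes). In BFC012 they were 7 and 18 (14.4% and 40.7%). In FPKM as deposited they were 1 and 22 (8.26% and 57.4%) and 3 and 17 (8.8% and 47.7%). Relative to the median gene they were 8 and 10 (23% and 21.2%) and 10 and 6 (22.8% and 21.7%). Apc, a scaffold of the complex that degrades beta-catenin, had 3786 reads in AFT024 cells and 8233 in their exosomes, a ratio of 12.7 (12.2 to 13.2). Prickle1 (6.59, 5.63 to 7.71) and Rnf43, the ligase that removes Frizzled from the membrane (7.16, 3.93 to 13.2), were also higher in AFT024 exosomes. In BFC012 exosomes the highest were Prickle2 at 14.9 (12.6 to 17.8), Prickle1 at 6.04 (3.33 to 11.3) and Ryk, a Wnt receptor related to kinases, at 4.89 (4.76 to 5.01). Lowest in AFT024 exosomes were the glypican gene Gpc6, 13.0-fold (8.97 to 19.6), Dvl3, which encodes a Dishevelled adaptor, 9.04-fold (6.31 to 13.4), and Ptk7, 8.06-fold (6.74 to 9.71). Lowest in BFC012 exosomes were Gpc4, 6.46-fold (4.57 to 9.40), Wls, the carrier that brings Wnt ligands to the cell surface, 5.87-fold (5.28 to 6.53), and Dvl3, 5.47-fold (4.36 to 6.94). Both genes for ligand secretion, Wls and Porcn, were called lower in exosomes of both lines, against 28.7% (AFT024) and 27.7% (BFC012) of all genes.

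The 18 Wnt system genes below 20 reads in every group were the ligands Wnt2b, Wnt3, Wnt3a, Wnt7a, Wnt7b, Wnt8a, Wnt8b, Wnt9b, Wnt10a and Wnt16, the R-spondins Rspo1 and Rspo4, the receptor Fzd10, and the antagonists Dkk1, Dkk2, Dkk4, Sfrp5 and Wif1. Of these, 6 had 0 reads in all groups (Fzd10, Rspo4, Sfrp5, Wif1, Wnt3a and Wnt8b), and the other 12 had 1 to 19 in their highest group. The one nearest the threshold was Wnt7a, with 5, 4, 19 and 0 reads, which is listed at 1.68 FPKM in AFT024 exosomes. Wnt7b came next, with 2, 9, 6 and 18 reads. Just above the threshold stood Wnt1 with 22 reads in AFT024 cells. Wnt3a, the ligand most often added to cultures to turn the pathway on, and Dkk1, the textbook co-receptor blocker, had 0 reads and at most 1 read.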

How the data were processed

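PolyA RNA of cells and exosomes of AFT024 and BFC012 was sequenced on a HiSeq2500; exosome RNA from several extractions was pooled and split into technical replicates that were merged, per the labels and the series' design text, so the samples of a group may differ only technically. TopHat, Bowtie and Cufflinks, with no version, and the build mm10 are named in the submitters' processing notes. Which tool counted reads, on which annotation and whether by strand, is not given in the sources used here. Deposited were tables of FPKM per the file headers (24544 genes, 39 of the 44 Wnt system genes) and tables of other values, per the file headers normalized reads, which the authors had scaled within each compared pair. Dividing each read column by its smallest value gave whole reads for 100% of values (within 0.01), equal between tables; 0 columns with values per sample were left unused. Depth is given in the report. Small RNA tables were not used here.

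Reads were scaled by median-of-ratios factors over 14905 genes with reads in all 4 groups. Ratios carry exact Clopper-Pearson intervals at 95%; no test could be made on merged values, and the script was tested on simulated reads. Genes needed 20 reads in 1 of the 2 groups, 2-fold was called, and 0 reads were set to 3. Every Wnt system gene is named, those with 20 reads with their values; of the 57 pathway genes, values are given for at most 3 called genes at either end of a comparison, and other pathway genes (with values, Axin2) were named after their values were seen. Markers come from 7 lists. The genes and lists were chosen with earlier results of these data known. Alternatives changed the scaling, the read minimum, the threshold, or used FPKM with a pseudocount of 1 or 0.1. Positions and exon numbers are from GENCODE mouse release 21. Python 3.11.15, numpy 2.4.6, pandas 2.3.3, scipy 1.17.1 and matplotlib 3.10.9 were used.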

Additional observations from a re-analysis of the deposited data

How the results depend on the processing

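No paired analysis was possible because each group was deposited as 1 merged value, so a fit with replicate numbers or without a replicate was not run. Depth limits the exosome groups most. Of 144 recomputed counts, 98 stayed within 1.5 times the reported one and 46 did not. Here "higher" means higher in the first-named group. The counts below show only how far each count moved. Bracketed percentages are the share of all genes called in that direction in the same setting. With a minimum of 100 reads, cells had 6 pathway genes higher (9.78%) and 2 lower (6.96%), AFT024 exosomes against BFC012 exosomes 0 Wnt system genes higher (9.52%), and AFT024 exosomes against cells 6 lower (29.7%). With no minimum beyond 1 read, the exosomes of the lines had 7 Wnt system genes higher (18%) and 8 pathway genes lower (14.9%), and AFT024 exosomes against cells 11 Wnt system genes higher (29.1%). With the whole interval past 2-fold, AFT024 exosomes had 6 (18.8%) and BFC012 exosomes 2 (18.9%) Wnt system genes lower than cells, and the exosomes of the lines 3 pathway genes lower (9.33%). At 3-fold, cells had 3 Wnt system genes lower (5.87%), and the exosomes of the lines 5 pathway genes higher (7.3%) and 3 lower (7.22%). BFC012 exosomes against cells then had 4 Wnt system genes higher, with 6 pathway genes higher (13.3%) and 9 lower (14.6%). Scaling to total reads left 4 Wnt system and 7 pathway genes higher in BFC012 exosomes (14.4%). Upper-quartile scaling kept each count within 1.5 times.

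In FPKM as deposited with 1 added, cells had 5 Wnt system genes higher and 2 lower and 5 and 2 pathway genes (7.94% and 6.27% of all genes). The lower Wnt system genes include Fzd6 (-4.41 on the log2 scale), through its listed 0 FPKM in AFT024 cells. The exosomes of the lines had 2 Wnt system and 5 pathway genes higher (8.32%), AFT024 exosomes against cells 3 and 1 (8.26%), and BFC012 exosomes against cells 3 and 3 (8.8%). Relative to the median gene, cells had 5 and 2 Wnt system and 6 and 2 pathway genes (8.33% higher and 5.91% lower). The exosomes of the lines had 2 and 2 Wnt system genes with 3 pathway genes lower (12.8% higher and 9.28% lower). AFT024 exosomes had 2 Wnt system and 10 pathway genes lower than cells (21.2%), and BFC012 exosomes 2 and 6 (21.7%). With 0.1 added, cells had 2 pathway genes lower (7.86%), and the exosomes of the lines 2 Wnt system genes higher (16.6%) and 3 pathway genes lower (13.3%). AFT024 exosomes then had 5 and 11 lower than cells (23.7%), and BFC012 exosomes 2 and 9 (25.5%). Fewer Wnt system and pathway genes reached 1 FPKM than 20 reads (17 against 25 and 38 against 47 in cells), and adding 1 shrinks ratios of genes near 0, so that centring then lifts them.

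Of 691 recomputed single ratios, 379 stayed within the counting interval of the reported one, 300 left it without changing the sign of a call, and 12 changed that sign. These 12 were exosome-against-cell ratios in FPKM relative to the median gene. With 1 added they were, on the log2 scale, Dkk3 0.14, Fzd4 0.86, Fzd9 0.85, Sfrp1 0.065, Wisp2 0.72 and Wnt11 0.37 in AFT024, and Fzd3 0.71, Lgr6 0.78 and Sost 0.28 in BFC012. With 0.1 added they were Fzd9 0.030 in AFT024 and Fzd3 0.36 and Lgr6 0.19 in BFC012.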
